A study of Mus musculus with 22 samples.

Results

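The Frizzled receptor family was taken as the 10 mouse genes Fzd1 to Fzd10, chosen by symbol from the 26202 gene symbols of the count table and without use of their values. Bulk RNA-seq was run on embryonic mouse trachea at 2 stages. At E11.5 whole tracheas, 5 pooled per sample, came from 5 controls (Wnt5a f/f) and 4 mutants (Dermo1Cre; Wnt5a f/f), in which a recombinase driven in the mesenchyme deletes the Wnt5a ligand, while the epithelium keeps the gene. At E13.5 cells were sorted as epithelium (EpCAM+), muscle (GFP+) or, negative for both, chondroblasts, and per the study's methods 5 tracheas of a litter were pooled for each sorted sample. The sorted control mice are labelled Bmp4 f/f; gamma SMA eGFP or Notum 300/300; gamma SMA eGFP, and all sorted mice carried the gamma SMA eGFP reporter of smooth muscle. The mutant chondroblasts were Notum 150/150; gamma SMA eGFP, and Notum encodes a secreted enzyme that removes the lipid of Wnt ligands. The sorted chondroblasts are thus defined by the lack of 2 labels, and other double-negative cells of the trachea remain in that gate. Here 2 libraries stood for each sorted control population, 1 from an earlier and 1 from a later date in the column names, and 3 for Notum mutant chondroblasts, all of the later date (column names 97, 98 and 98-2). The column names do not tell which control genotype a sorted control library had.

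Frizzled proteins are receptors that cross the membrane repeatedly and bind Wnt ligands through a cysteine-rich domain outside the cell, whose groove holds the lipid of the ligand. With the co-receptors Lrp5 and Lrp6 they stabilise β-catenin, and with Ror, Ryk or the planar polarity proteins they act on the cytoskeleton. By sequence the family splits into Fzd1, Fzd2 and Fzd7, into Fzd5 and Fzd8, into Fzd4, Fzd9 and Fzd10, and into Fzd3 and Fzd6, the pair best known for planar polarity. In the trachea, Wnt signals pass between epithelium and mesenchyme while cartilage and smooth muscle form.

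Total counts ran from 6880660 to 21678177 per library, so that 3 counts, taken as the limit of detection, stood for 0.139 to 0.434 CPM (counts scaled to library size, here over 18 libraries). The sorted populations held the markers of their labels. The summed CPM of 13 epithelial markers was 3794 and 4348 in epithelium and 17.6 to 51.9 in the other sorted libraries. The sum of 9 smooth muscle markers was 11245 and 14374 in muscle and at most 122 in the other sorted libraries, and that of 14 chondroblast markers was 3774 to 6318 in control and mutant chondroblasts and at most 2879 in the other sorted libraries. The muscle libraries also held 5 skeletal muscle markers (Myod1, Myog, Myf5, Actc1 and Ttn), which summed to 2403 (earlier) and 625.5 CPM (later). Other sorted libraries had at most 38.7 CPM. At E11.5 the sums overlapped, at 45.1 to 240 CPM in controls and 192 to 333 CPM in mutants. There Myod1 and Myog were each higher in all mutants, while Myf5, Actc1 and Ttn overlapped. The part of such cells in the Frizzled levels was not tested. The targeted genes did not separate mutants from controls. Wnt5a measured 162, 88.4, 57.7, 86.9 and 84.6 CPM in the E11.5 controls and 127, 78.6, 46.5 and 87.7 CPM in the libraries labelled Wnt5a mutant. Notum measured 13.8 and 86.1 CPM in control chondroblasts and 34.0, 35.6 and 13.9 CPM in those labelled Notum mutant. Counts over a whole gene do not show whether part of it was deleted, so the genotypes rest on the labels.

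Promoters are shown for the 3 members on which the comparisons turn most: Fzd1 and Fzd9, the members with the lowest fold in epithelium against mesenchyme, and Fzd10, the member with the widest fold in Notum mutant chondroblasts. Each runs 5′ to 3′ from 250 bases before to 50 after the start of the gene, from RefSeq on GRCm38.p6, with any GC box (GGGCGG on either strand) in capitals. Fzd1 lies at chr5:4758167-4758466 on the minus strand, Fzd9 at chr5:135250998-135251297 on the minus strand, and Fzd10 at chr5:128600856-128601155 on the plus strand. The GENCODE M21 annotation places the starts elsewhere, at 4758035 for Fzd1, 135251230 for Fzd9 and 128600844 for Fzd10. By it the whole Fzd10 window and most of the Fzd9 window lie inside the gene, and the Fzd1 window lies wholly before it.
Fzd1: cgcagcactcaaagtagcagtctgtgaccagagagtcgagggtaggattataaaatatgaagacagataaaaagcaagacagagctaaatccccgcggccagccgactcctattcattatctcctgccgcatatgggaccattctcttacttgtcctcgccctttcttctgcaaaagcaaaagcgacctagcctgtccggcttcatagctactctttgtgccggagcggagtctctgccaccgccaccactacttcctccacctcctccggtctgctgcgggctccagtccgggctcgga
Fzd9: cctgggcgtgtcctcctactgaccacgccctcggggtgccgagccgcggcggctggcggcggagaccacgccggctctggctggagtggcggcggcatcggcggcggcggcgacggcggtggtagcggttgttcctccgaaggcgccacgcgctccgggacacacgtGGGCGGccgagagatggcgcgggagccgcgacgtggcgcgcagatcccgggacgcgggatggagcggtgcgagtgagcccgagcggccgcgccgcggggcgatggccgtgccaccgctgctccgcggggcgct
Fzd10: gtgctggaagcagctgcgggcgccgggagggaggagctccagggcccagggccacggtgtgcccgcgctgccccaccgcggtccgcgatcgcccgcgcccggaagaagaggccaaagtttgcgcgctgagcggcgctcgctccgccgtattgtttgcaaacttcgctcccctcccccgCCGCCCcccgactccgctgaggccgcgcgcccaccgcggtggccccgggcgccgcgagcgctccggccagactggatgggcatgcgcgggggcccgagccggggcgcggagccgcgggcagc
The TCF/LEF word CTTTG followed by AA, by AT, by TA or by TT, searched on both strands, is not in these 3 windows. Of the 6 members with a promoter in the table (Fzd1, Fzd4, Fzd5, Fzd7, Fzd9 and Fzd10) only Fzd7 held such a word, 1 match that began 130 bases before the start, against 16.9% of 32851 promoters. A GC box stood in 35.7% of all promoters and in each of these 6 but Fzd1, with 1 in Fzd9 and Fzd10, 7 in Fzd7, 8 in Fzd4 and 10 in Fzd5. The Fzd9 and Fzd10 windows held 53 and 45 CpG and 78.0% and 77.7% G and C, where the Fzd1 window held 16 CpG and 54.0%, against medians of 7 CpG and 52.7% over all promoters.

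Levels were set side by side between genes as CPM per kilobase of transcript. On that scale the Frizzled transcripts were dominated by Fzd1 and Fzd2: Fzd1 led the family in 9 libraries and Fzd2 in 8, and in the remaining 1, the earlier epithelium library, Fzd6 led. The family summed to 26.7 and 29.8 CPM per kb in epithelium and to 51.6 to 66.25 CPM per kb in control muscle and chondroblasts, which did not overlap with epithelium. In Notum mutant chondroblasts it summed to 61.9 to 83.1 CPM per kb. At E11.5 it was 29.7 to 51.0 CPM per kb in controls and 30.9 to 53.8 in Wnt5a mutants, which overlap.

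The makeup of the family differed by population. Fzd1 held 35.9% and 56.5% of the family's CPM per kb in control chondroblasts but 16.2% and 26.6% in epithelium, while Fzd6 held 27.7% and 12.6% in epithelium and at most 2.15% in the muscle and control chondroblast libraries. Fzd3 and Fzd7 followed, at 2.97 to 5.60 and 1.89 to 5.15 CPM per kb as group means. Fzd5 and Fzd8 were near the bottom, with group means at or under 0.496 CPM per kb, and Fzd10 had group means from 0.0480 CPM per kb in muscle to 1.60 in Notum mutant chondroblasts. Fzd9 had a group mean of 0.314 CPM per kb in E11.5 controls and 2.75 and 2.76 CPM per kb in muscle and chondroblasts.

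**Figure D1:**
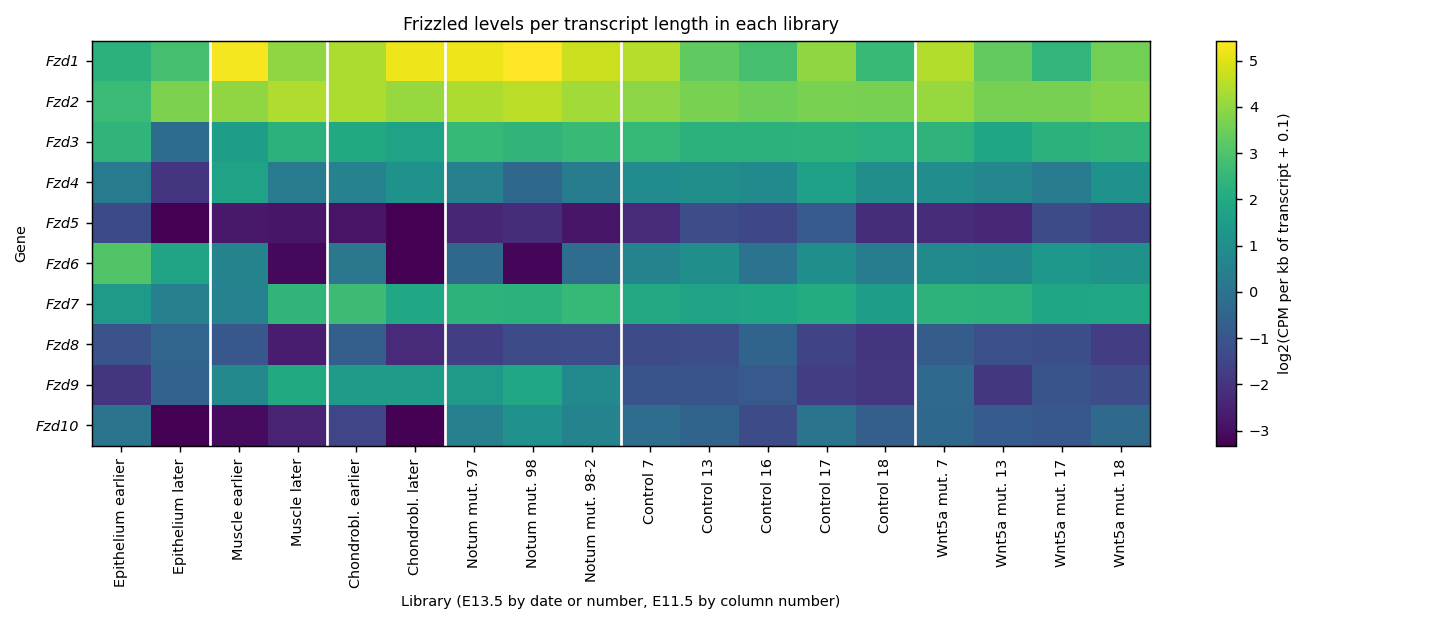
Levels of the 10 Frizzled genes as log2(CPM per kb of transcript + 0.1) by color, rows by gene and columns by library, with white lines between groups. The upper rows (Fzd1 and Fzd2) are brightest in nearly all libraries, Fzd6 is brighter in the 2 epithelium libraries than in the other columns, and Fzd9 is brighter in muscle and chondroblasts than at E11.5.

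Between the sorted control populations, the question is which cells carry which receptors. Fzd1, a receptor of the β-catenin branch, was lower in epithelium than in mesenchyme throughout. Its levels were 20.3 and 29.8 CPM in epithelium (earlier, later date), 167 and 66.1 in muscle and 85.7 and 156.5 in chondroblasts. Epithelium was lowest at both dates, and muscle and chondroblasts overlapped. The log2 fold change of epithelium against the mean of muscle and chondroblasts was -2.24 (SE 0.50), with adjusted p = 0.0605 by edgeR (quasi-likelihood test, Benjamini-Hochberg adjustment over all genes tested), so Fzd1 did not pass an adjusted p under 0.05. Against muscle alone it was -2.22 (SE 0.54, adjusted p = 0.0931), and against chondroblasts alone -2.25 (SE 0.54, adjusted p = 0.101).

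Fzd2, a receptor also known to carry Wnt5a signals, measured 22.7 and 47.1 CPM in epithelium, 57.1 and 75.5 in muscle and 74.6 and 61.8 in chondroblasts. Epithelium lay below all mesenchymal libraries, by a log2 fold change of -0.94 (SE 0.38, adjusted p = 0.238 in edgeR's test). Fzd7, their close relative, measured 11.3 and 5.88 CPM in epithelium, 6.16 and 23.7 in muscle and 28.4 and 16.2 in chondroblasts. There the earlier muscle library fell within the epithelial range, and the log2 fold change was -1.07 (SE 0.80, adjusted p = 0.515).

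Fzd6, which orients hairs and closes epithelial sheets, was the only member whose epithelial libraries both lay above all mesenchymal ones. Its epithelial levels were 35.8 and 14.5 CPM, those of muscle 6.16 and 0.0631 CPM, and those of chondroblasts 4.34 and 0 CPM. In muscle and chondroblasts the later library was at or near 0 and the earlier one was not, so the spread was wide. The log2 fold change was 3.29 (SE 1.86, adjusted p = 0.390 in edgeR's test). Other Wnt pathway genes were also at 0 in only the earlier or the later library. In epithelium Reck measured 23.1 and 0 CPM and Frzb 31.7 and 0 CPM (earlier, later). Wnt2 measured 0 and 15.1 CPM in muscle, and Rnf43 8.12 and 0 CPM in chondroblasts. A 0 in a single library thus does not show that a population lacks the transcript. The reason for these values was not tested. Fzd3, which guides axons and acts with Fzd6, measured 66.1 and 9.48 CPM in epithelium, 36.5 and 60.9 in muscle and 49.2 and 41.2 in chondroblasts. The epithelial libraries bracketed all others, and the log2 fold change of -0.29 (SE 0.72) turned to -2.31 without the earlier epithelium library.

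Fzd9, a receptor studied in bone formation, measured 0.335 and 1.31 CPM in epithelium, 3.79 and 8.83 in muscle and 6.39 and 6.28 in chondroblasts. The mesenchymal libraries all lay higher, at a log2 fold change of -2.93 for epithelium (SE 1.35, adjusted p = 0.288 in edgeR's test). Fzd4, the receptor of Norrin in the growth of retinal vessels, measured 7.57 and 1.05 CPM in epithelium, 21.4 and 7.76 in muscle and 9.25 and 14.7 in chondroblasts. Epithelium was below mesenchyme in all libraries, at -1.59 (SE 1.11, adjusted p = 0.484). Fzd8 measured 2.20 and 3.73 CPM in epithelium, 2.49 and 0.379 in muscle and 3.17 and 0.673 in chondroblasts, with a log2 fold change of 0.84 (SE 1.37).

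Fzd5 and Fzd10 were too low for the test among sorted controls. Fzd5, which acts in the eye and in placental vessels, measured 2.01 CPM in the earlier epithelium library, was not detected in the later epithelium and later chondroblast libraries, and stood at 0.255 to 0.356 CPM in the other control libraries. Fzd10 measured 3.02 CPM in the earlier and 0 in the later epithelium library, 0.0593 and 0.252 CPM in muscle, and 0.817 and 0 CPM in chondroblasts. In the earlier epithelium library the 4 macrophage markers (Ptprc, Csf1r, Cx3cr1 and C1qa) summed to 154 CPM, against 1.11 CPM in the later one, 0.356 and 51.2 in muscle and 145 and 69.9 in chondroblasts. The part of that in the levels of Fzd5 and Fzd10 was not tested.

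Of the 8 members tested in the sorted controls, 0 passed an adjusted p under 0.05 between epithelium and mesenchyme, where edgeR called 5.09% of 13687 genes. At an unadjusted p under 0.05 there were 2 (Fzd1 and Fzd2), against 20.2% of all genes, and 0 passed the adjusted threshold between epithelium and muscle (background 3.76%), epithelium and chondroblasts (2.83%) or chondroblasts and muscle (0.139%). In these last 3 contrasts 1, 1 and 0 members reached an unadjusted p under 0.05 (backgrounds 18.3%, 16.3% and 5.74%), and DESeq2 called 1, 1 and 0 (backgrounds 13.3%, 11.4% and 1.86%), Fzd1 each time. The groups did not overlap for 1 member with epithelium higher (16.5% of all genes) and for 4 with epithelium lower (Fzd1, Fzd2, Fzd4 and Fzd9, against 17.7% of all genes). The members' median log2 fold change was -1.0, and that of all genes -0.02. All 8 overlapped between chondroblasts and muscle, where the non-overlapping share of all genes was 40.2%. The call on Fzd1 depended on the test, since it passed with DESeq2 (adjusted p = 1.33e-04, which called 14.9% of genes), without the filter on low counts (1.96e-09, with 9.57%), with at least 10 counts in every library (0.0214, with 7.74%) and with 18 libraries in 1 fit (0.0121, with 25.3%). The fit of 18 libraries also called Fzd2 (adjusted p = 0.0121) and Fzd9 (0.0169), and edgeR without the filter called Fzd6 (0.0352). In these bulk libraries, fewer cells of a type and less RNA per cell cannot be told apart.

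**Figure D2:**
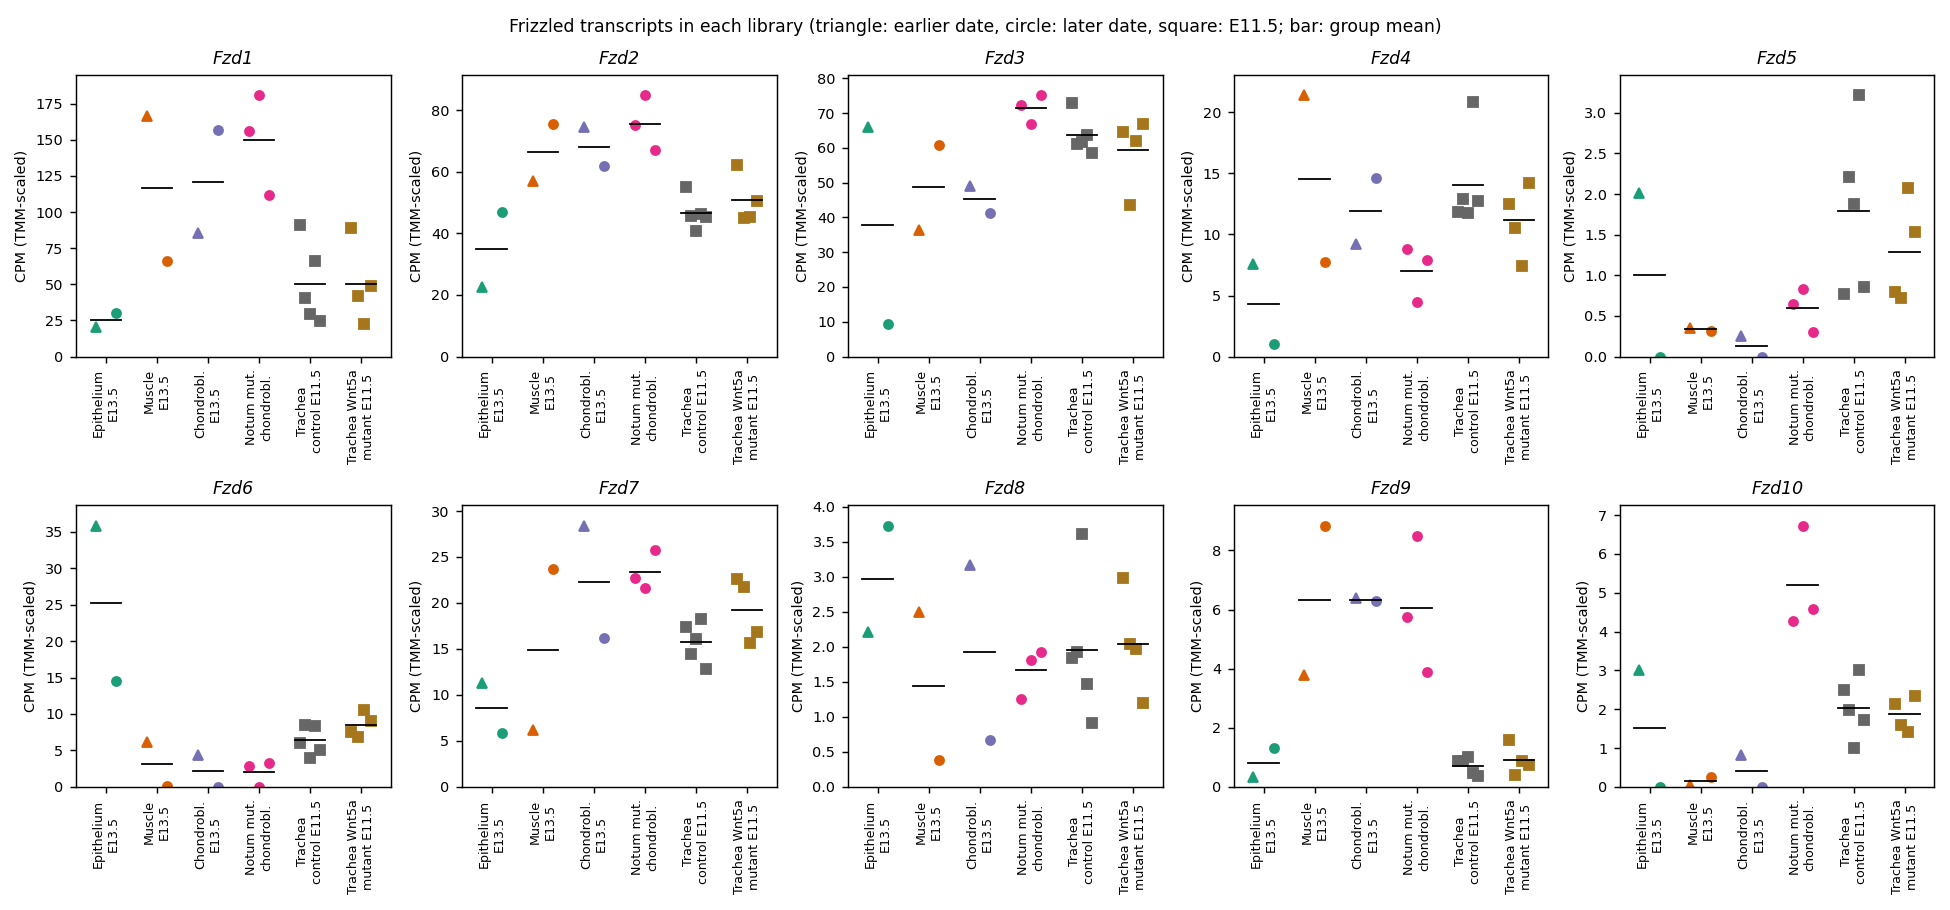
CPM (TMM-scaled, linear axis from 0) of each Frizzled gene in 18 libraries by group, with triangles for the earlier date, circles for the later date, squares for E11.5 and a bar at the group mean. Fzd1, Fzd2, Fzd4 and Fzd9 lie lower and Fzd6 higher in epithelium than in the muscle and control chondroblast libraries, and Fzd10 lies highest in Notum mutant chondroblasts, at 4.27 to 6.73 CPM.

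The Notum comparison asks whether chondroblasts without this Wnt-inactivating enzyme carry other levels of the receptors. Fzd10 was the member that stood furthest apart. In control chondroblasts it had 16 counts (0.817 CPM) in the earlier library and 0 counts in the later one, and in the libraries labelled Notum mutant it had 92, 137 and 93 counts, or 4.27, 6.73 and 4.59 CPM. All 3 mutants lay above both controls. Against the later control, the only one of the mutants' date, the mutant mean of 5.20 CPM was at least 23.2-fold higher. That control was set to 3 counts in the library (0.224 CPM), and the single mutants gave 19.0-, 30.0- and 20.5-fold. These lower bounds cover counting error only. The control chondroblast libraries differed from each other by far more than sampling noise (chi-square of 125 per gene). The earlier control gave a ratio of 6.36. The fitted log2 fold change was 3.61 (SE 1.27), with adjusted p = 0.347 in edgeR's test, which Fzd10 did not pass.

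Even in mutants Fzd10 was a minor member, at 1.76% to 2.49% of the family's CPM per kb. Among marker sums of other cells, those of macrophages and smooth muscle were higher and that of epithelium lower in all mutants. The 9 smooth muscle markers summed to 76.5 and 75.9 CPM in controls and to 118.9, 84.6 and 121.7 CPM in mutants. The 13 epithelial markers summed to 39.8 and 36.8 CPM in controls and to 28.45, 17.6 and 30.8 CPM in mutants. The 4 macrophage markers summed to 145 and 69.9 CPM in the controls and to 236, 191 and 301 CPM in the mutants. None of the 4 was at 0 in either group. Csf1r, Cx3cr1 and C1qa were each higher in all mutants. Ptprc overlapped, at 8.84 and 15.1 CPM in controls and 8.35, 6.82 and 28.7 CPM in mutants. The 3 genes most like Fzd10 over 18 libraries in log2 CPM were Fcgr1 (Pearson r 0.93), an Fc receptor of macrophages, Gm5126 (0.93) and Slc25a45 (0.92). The 18 points share libraries and groups, and the r is a description. The sum of 14 chondroblast markers was 4518 and 3774 CPM in controls and 5088 to 6318 in mutants, while the sum of 5 erythroid markers was 31521 and 712 CPM in controls and 2512 to 3432 in mutants. The sums of endothelial markers (114 and 54.0 CPM in controls, 49.4 to 81.0 in mutants) and of neural and glial markers (205 and 321, 274 to 356) overlapped as well. The part of these cells in the Fzd10 level was not tested.

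The neighbour Fzd10os, a noncoding RNA on chr5:128579130-128600687 (GRCm38.p6), was looked at after the values of Fzd10 were seen. It ends 418 bases before the RefSeq start of Fzd10 and nearer to the GENCODE M21 start, at 128600844. It measured 1.48 and 3.29 CPM in controls and 9.93, 10.1 and 5.08 CPM in mutants, so its groups did not overlap either. Its log2 fold change was 1.82 (SE 0.61, adjusted p = 0.334 in edgeR's test). Whether the counting used strand is not given in the sources used here, so reads of the neighbours may not be fully separated.

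Fzd3 had the smallest standard error of the members in this comparison. It measured 49.2 and 41.2 CPM in controls and 72.3, 66.8 and 75.1 CPM in mutants. The groups did not overlap, and the log2 fold change was 0.67 (SE 0.15), with adjusted p = 0.254 in edgeR's test. Fzd4 lay the other way, at 9.25 and 14.7 CPM in controls and 8.77, 4.47 and 7.90 in mutants, with a log2 fold change of -0.76 (SE 0.44, adjusted p = 0.524).

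**Figure D3:**
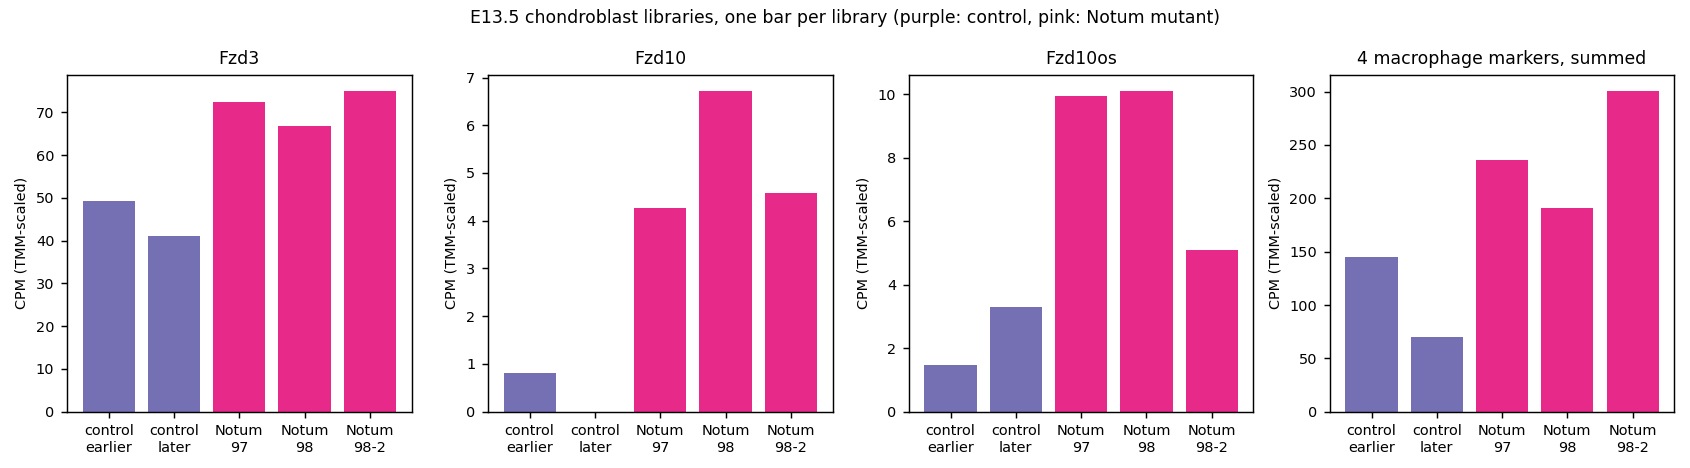
Bars give CPM (TMM-scaled, from 0) in each E13.5 chondroblast library for Fzd3, Fzd10, Fzd10os and the sum of 4 macrophage markers, purple for the earlier and later control and pink for the 3 Notum mutants. In each panel all 3 mutants lie above both controls, and the later control has no Fzd10 count.

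Fzd1, Fzd2, Fzd7 and Fzd9 differed by about their standard error or by less. Fzd1 measured 85.7 and 156.5 CPM in controls and 156, 181 and 112 in mutants, with a log2 fold change of 0.31 (SE 0.31). Fzd2 measured 74.6 and 61.8 CPM in controls and 75.1, 84.8 and 67.1 in mutants (0.16, SE 0.16), and Fzd7 measured 28.4 and 16.2 CPM in controls and 22.7, 21.65 and 25.7 in mutants (0.08, SE 0.28). For Fzd9 the controls had 6.39 and 6.28 CPM and the mutants 5.75, 8.49 and 3.90 (-0.06, SE 0.48). All 4 ranges overlapped.

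Fzd6 was erratic in chondroblasts, at 4.34 and 0 CPM in controls and 2.92, 0.0491 and 3.31 in mutants (log2 fold change -0.04, SE 1.86). Fzd8 measured 3.17 and 0.673 CPM in controls and 1.25, 1.82 and 1.93 in mutants (-0.19, SE 0.87). Fzd5 was not tested, with 0.255 and 0 CPM in controls and 0.650, 0.835 and 0.296 in mutants.

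Of the 9 members tested, edgeR called 0, and it called 0% of 14120 genes. At an unadjusted p under 0.05 there were 2 members (Fzd3 and Fzd10) against 12.5% of all genes, and groups did not overlap for 2 members with mutants higher (17.1% of all genes) and 1 with mutants lower (16.4%). The median log2 fold change was 0.08 over the members and 0.02 over all genes. DESeq2 called both Fzd3 (adjusted p = 0.0111) and Fzd10 (0.0449), with 3.73% of all genes called. With the date as a term, a fit in which only the later control is set against the mutants, edgeR called both too (Fzd3 at 0.78, SE 0.17, adjusted p = 0.0223, and Fzd10 at adjusted p = 0.00744, with 19.3% of all genes called). Without the earlier control both were called (0.0217 and 0.00685, with 19.1% called), and without the later one neither was (0.159 and 0.114).

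**Figure D4:**
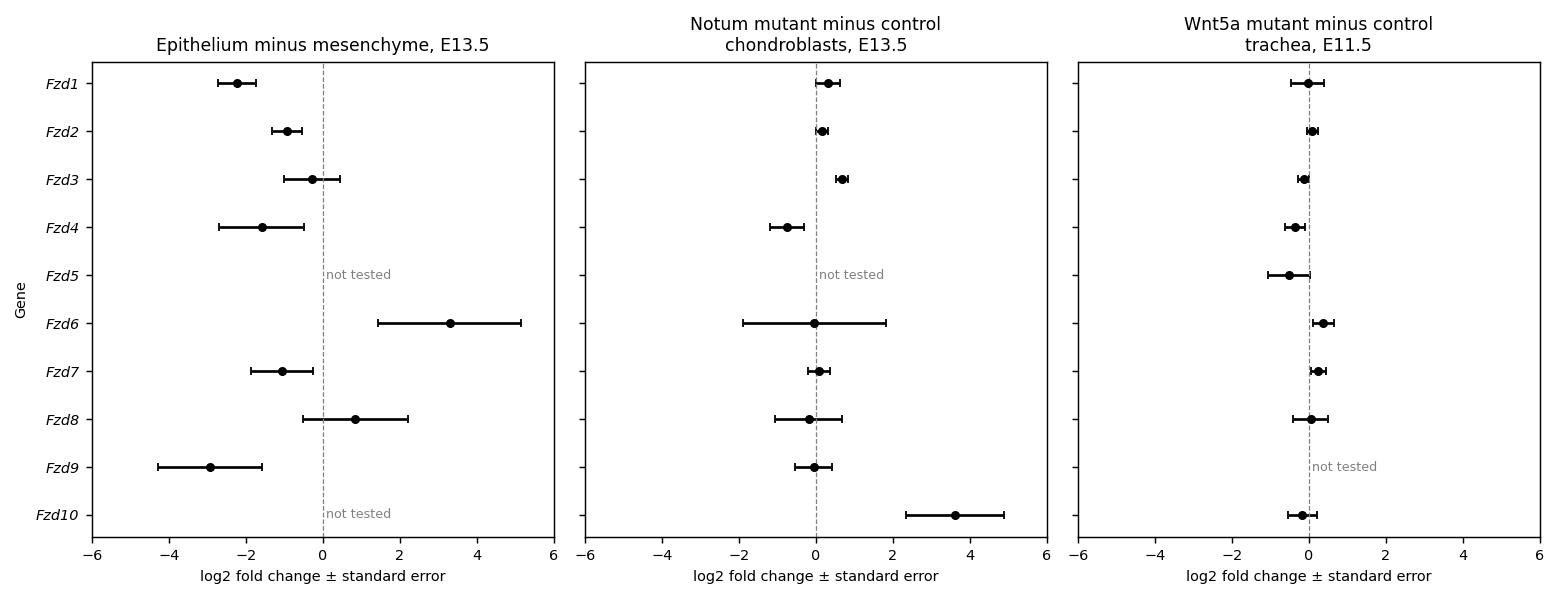
The log2 fold change of each Frizzled gene (points) with its standard error (bars) from edgeR, for epithelium minus mesenchyme, Notum mutant minus control chondroblasts and Wnt5a mutant minus control tracheas. None of the plotted differences passed an adjusted p under 0.05, and the Wnt5a panel has the narrowest range, from -0.51 to 0.37.

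The Wnt5a comparison asks whether receptor transcripts differ in E11.5 tracheas in which the mesenchyme has lost this ligand. All 9 members tested overlapped between the groups. Values are given by the number in the column names, 7, 13, 16, 17 and 18 for controls and 7, 13, 17 and 18 for mutants. Fzd1 measured 91.0, 40.7, 29.5, 66.3 and 24.5 CPM in controls and 88.9, 41.7, 22.3 and 49.2 CPM in mutants. The libraries numbered 7 were highest in both groups, and the log2 fold change was -0.02 (SE 0.43). Those 2 libraries also stood apart in 6 genes that cell dissociation induces (Fos, Jun, Egr1, Atf3, Fosb and Ier2), which summed to 2543 and 3340 CPM there and to 178 to 442 CPM in the other E11.5 libraries. They also had the highest sums of 14 chondroblast markers, at 898.5 and 1149 CPM, against 310.5 to 733 CPM in the other E11.5 libraries. Their sums of 7 neural and glial markers were lowest (63.1 and 57.2 CPM, against 148 to 500 CPM). So were those of 5 erythroid markers (2557 and 3576 CPM, against 4161 to 16460 CPM). The part of any of these in Fzd1 was not tested. Without those 2 libraries the Fzd1 log2 fold change was -0.13 (SE 0.37).

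Fzd2 measured 55.1, 45.8, 40.8, 46.3 and 45.3 CPM in controls and 62.1, 44.9, 45.2 and 50.6 in mutants (log2 fold change 0.09, SE 0.14). Fzd7 measured 17.4, 14.4, 16.1, 18.3 and 12.8 CPM in controls and 22.6, 21.74, 15.6 and 16.9 in mutants (0.25, SE 0.19). For Fzd2 mutants 13 and 17 lay below all controls but control 16 and mutant 7 lay above all of them, and for Fzd7 mutants 7 and 13 lay above all controls. Fzd3 measured 72.8, 61.2, 61.8, 63.8 and 58.6 CPM in controls and 64.6, 43.6, 62.0 and 66.9 in mutants (-0.14, SE 0.15), with mutant 13 below all other libraries.

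Fzd6 measured 6.07, 8.55, 3.91, 8.37 and 5.08 CPM in controls and 7.50, 6.88, 10.5 and 9.06 in mutants (log2 fold change 0.37, SE 0.27). Fzd4 measured 11.8, 12.9, 11.7, 20.8 and 12.8 CPM in controls and 12.5, 10.6, 7.42 and 14.2 in mutants (-0.36, SE 0.26). Control 17 lay well above the other 4 controls for Fzd4, and mutant 17 lay lowest. Fzd10 measured 2.50, 1.98, 1.01, 3.01 and 1.71 CPM in controls and 2.13, 1.60, 1.42 and 2.34 in mutants (-0.17, SE 0.38). At this stage Fzd10 was thus detected in all 9 libraries.

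The lowest members were Fzd5, at 0.766 to 3.21 CPM in controls and 0.715 to 2.07 in mutants (log2 fold change -0.51, SE 0.55), Fzd8, at 0.909 to 3.62 and 1.20 to 2.98 CPM (0.05, SE 0.46), and Fzd9, at 0.374 to 1.01 and 0.385 to 1.60 CPM and not tested. Of the 9 members tested edgeR called 0, with 0.0136% of 14663 genes called, and 0 reached an unadjusted p under 0.05, against 4.49% of all genes. DESeq2 called 0 of them too, with 0.273% called. Groups did not overlap for 0 members, against 1.26% of all genes. All 9 had an adjusted p = 0.999 in edgeR's test. The median log2 fold change was -0.02 over the members and -0.02 over all genes.

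**Figure D5:**
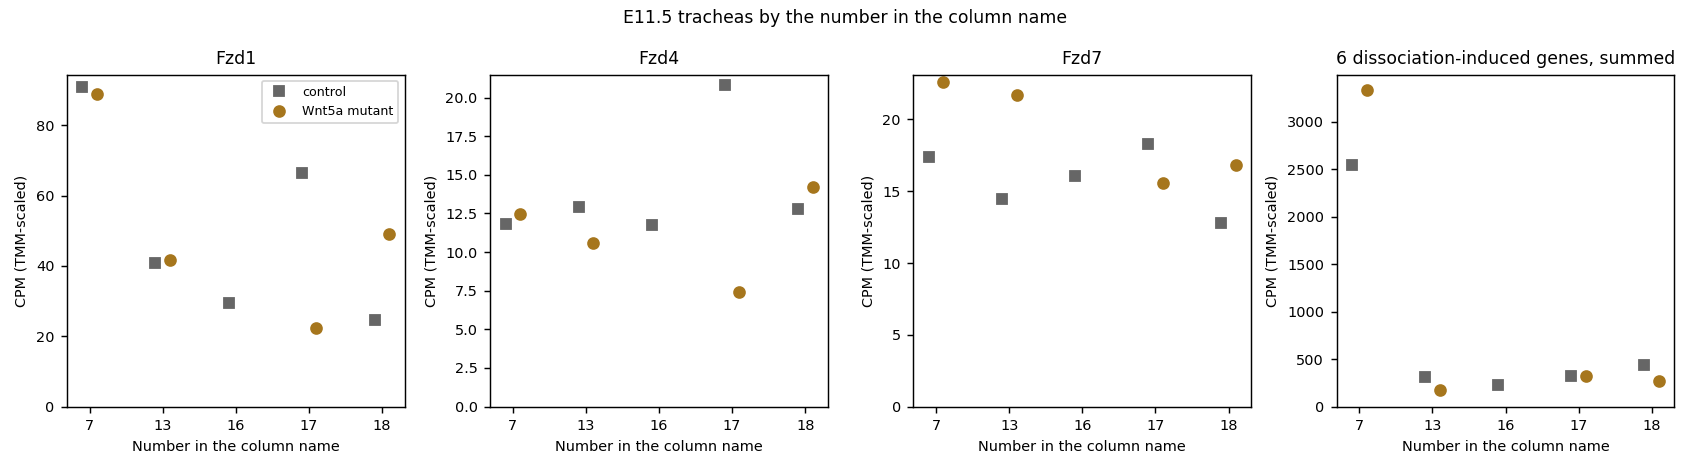
CPM (TMM-scaled, from 0) of Fzd1, Fzd4 and Fzd7 and of 6 summed dissociation-induced genes in the E11.5 tracheas against the number in the column name, gray squares for controls and brown circles for Wnt5a mutants. The 2 libraries numbered 7 are highest for Fzd1 and for the dissociation genes, and control 17 is highest for Fzd4, at 20.8 CPM.

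The sorted controls at E13.5 were also set beside the control tracheas at E11.5, a comparison in which stage, sorting, genotype and date cannot be told apart. Fzd9 measured 0.374 to 1.01 CPM in the 5 E11.5 controls, with a median of 0.868, and 3.79 to 8.83 CPM in the 4 libraries of muscle and chondroblasts. Muscle was higher by a log2 fold change of 3.12 (SE 0.79), and Fzd9 was the 1 of 10 members that passed there, at adjusted p = 0.0338 in edgeR's test, which called 9.27% of 14971 genes. Chondroblasts were higher by 3.10 (SE 0.79), with adjusted p = 0.0528, and epithelium by 0.16 (SE 0.85). The difference between these contrasts was not tested.

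The Fzd9 call in muscle did not hold without the later muscle library (log2 fold change 2.37, adjusted p = 0.177), without any one of controls 7, 13, 17 and 18 (0.0635 to 0.0903) or without the filter on low counts (0.0743). In chondroblasts it passed with DESeq2 (adjusted p = 0.00237, with 12.5% of genes called). With 10 counts required in every library Fzd9 was not tested. The genes most like Fzd9 over 18 libraries in log2 CPM were Cask (Pearson r 0.93), Rflna (0.92) and H19 (0.92), chosen here because Fzd9 was the member called.

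Fzd1 was at 24.5 to 91.0 CPM in E11.5 controls, and its log2 fold change was 1.21 in muscle (SE 0.48, adjusted p = 0.143), 1.24 in chondroblasts (SE 0.48, adjusted p = 0.179) and -1.03 in epithelium (SE 0.54, adjusted p = 0.233). Without passing the test, Fzd10 (log2 fold change -3.67 in muscle, SE 1.92, and -2.29 in chondroblasts, SE 1.72) and Fzd5 (-2.40, SE 1.63, and -3.69, SE 1.79) lay below all E11.5 controls in both populations, and Fzd2 lay above them (0.50, SE 0.26, and 0.52, SE 0.26). Fzd3 was below them in chondroblasts (-0.53, SE 0.53). With Fzd9, groups thus did not overlap for 2 members higher and 2 lower in muscle, where the shares of all genes were 17.7% and 20.8%, and for 2 higher and 3 lower in chondroblasts, where they were 17.4% and 18%. In chondroblasts edgeR called 0 of 10 members (4.4% of all genes), with 2 at an unadjusted p under 0.05 (20.2%), and in epithelium 0 of 10 (12.6%), with 1 at an unadjusted p under 0.05 (29.2%), where DESeq2 called 0 too (23.8%). In muscle 2 reached an unadjusted p under 0.05 (25.8%). Without the earlier epithelium library edgeR called 3 in epithelium (Fzd3, Fzd4 and Fzd5), with 30.2% of all genes called, and without the later one it called 1 other (Fzd2, log2 fold change -1.08, adjusted p = 0.0470), with 5.07% called, so which members passed depended on the epithelium library that was kept.

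The other genes of the pathway were a list of 63 Wnt ligands, co-receptors, turnover factors, secreted Frizzled-related proteins, cytoplasmic partners and planar polarity genes. Between epithelium and mesenchyme 2 of the 48 tested were higher in epithelium and 3 lower, where 5.09% of all genes were called. Wnt7b, a ligand of airway epithelium, measured 222 and 510 CPM in epithelium and at most 4.33 CPM in the mesenchymal libraries (log2 fold change 9.48, SE 0.72, adjusted p = 0.00256 in edgeR's test). Tspan12, a tetraspanin that works with Fzd4, measured 94.0 and 77.1 CPM in epithelium and 9.27 to 28.6 CPM in mesenchyme (2.28, SE 0.36, adjusted p = 0.0201). Lower in epithelium were Sfrp2, a secreted protein with a Frizzled-like domain (-3.50, SE 0.54), Wnt5a (-2.55, SE 0.49, adjusted p = 0.0392) and Gpc3, a heparan sulfate carrier that binds Wnt (-1.36, SE 0.20).

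In the mutants the list held no call in edgeR's test. Of 51 genes tested in Notum mutant chondroblasts 0 passed edgeR's adjusted threshold and 11 an unadjusted p under 0.05 (12.5% of all genes), and of 50 in the Wnt5a comparison 0 and 5 (4.49%), with list medians of 0.23 and -0.04 against 0.02 and -0.02 over all genes. DESeq2 called 4 of the 51 in Notum mutants (Rspo2, Rspo3, Wnt10a and Znrf3, against 3.73% of all genes) and 1 of the 50 in Wnt5a mutants (Frzb, against 0.273%), all named for these calls. Frzb measured 16.8 to 29.2 CPM in controls and 45.0 to 96.0 CPM in Wnt5a mutants. Tspan12 was among the 5 at an unadjusted p under 0.05 in edgeR's Wnt5a comparison, and DESeq2 did not call it. It measured 24.6 to 52.8 CPM in controls and 34.4 to 93.6 CPM in Wnt5a mutants. Its log2 fold change was 0.94 (SE 0.28), with adjusted p = 0.999 in edgeR's test. It is named here after its value was seen. Tspan12 was highest in mutant 17, where the 13 epithelial markers summed to 814 CPM, against 285 to 475 CPM in the other E11.5 libraries. The part of that in Tspan12 was not tested. Against E11.5 controls, muscle had 4 higher and 2 lower of 50 (9.27% of all genes called), among them Lgr6, a receptor of R-spondins (4.82, SE 0.72), and Vangl2 of the planar polarity core (-1.48, SE 0.27). Chondroblasts had 3 higher and 2 lower (4.4% of all genes), among them Rspo4, an R-spondin (5.87, SE 1.11), and Wnt4 (-6.88, SE 1.44). Epithelium had 4 higher and 11 lower (12.6% of all genes), among them Gpc4 (1.69, SE 0.43) and Sfrp1 (-3.88, SE 0.60).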

How the data were processed

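Full-length poly(A) cDNA was made with SMART-Seq v4 chemistry and sequenced from Nextera XT libraries. The authors deposited expected counts (estimated counts that need not be whole, not normalized) as 47248 entries for 26202 symbols in 22 columns, 56.0% of values being fractional. The study's methods name DESeq2 and Cufflinks, and the submitters' processing notes name Partek, limma and mm10. The aligner, the counting and its annotation are not given in the sources used here. Of the columns, 18 could be placed in 1 group by name, and the 4 with no matching label were left out. The names of the earlier epithelium library and of mutant 98-2 lack the sign that marks GFP as negative in the other epithelium and chondroblast columns. Both were taken as GFP negative. Their 9 smooth muscle markers summed to 16.3 and 122 CPM, against 11245 and 14374 CPM in muscle. Columns carry no replicate number of the labels, which list 3, 3, 3 and 4 sorted samples where 2, 2, 2 and 3 libraries were analysed.

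Entries were summed per symbol and rounded. Each library was 1 replicate, and samples of both stages were pools of 5 tracheas. The study's methods call the sorted samples independent. Whether populations of 1 date, or the columns 98 and 98-2, came from the same tracheas is not given in the sources used here. No 2 libraries of a group agreed within sampling noise (chi-square of at least 18.8 per gene). A gene entered the test if over 50% of the libraries of any group reached 1 CPM. Testing used TMM and edgeR's quasi-likelihood test (edgeR 4.0.16, R 4.3.3; robust, 2-sided, Benjamini-Hochberg over all genes tested, adjusted p under 0.05). The SE is the log2 fold change over the square root of F. CPM were scaled over 18 libraries, and intervals and floors cover counting error only, since no molecular identifiers were used. Per-length values used the longest GENCODE M21 transcript of each gene. Likeness used log2 CPM with a prior count of 2. Named were all 10 members, the pathway genes called (up to 3 per list and direction, of which examples are given) and the 3 genes most like Fzd10 or a called member.

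Alternatives were DESeq2 1.42.0, its size factors, no TMM, no filter, at least 10 counts in every library, all 18 libraries in 1 fit, each library left out, and the date or column number as a block. The scripts were tested on simulated counts. The members and the lists were chosen with earlier results of these data known.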

Additional observations from a re-analysis of the deposited data

Results flagged for a closer look

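Fzd4 measured 20.8 CPM in control 17 of the E11.5 tracheas, where the other 4 controls lay between 11.7 and 12.9 CPM, a gap larger than Dixon's 95% limit allows. Of 20 groups of 4 or 5 libraries checked over the members, this was the 1 flagged, and chance flags about 1 in 20.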

How the results depend on the processing

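Of the fold changes and calls recomputed, 425 kept their direction and side of the threshold, 26 passed it newly, 6 no longer did, 1 without a test moved by over its spread, and 27 changed sign, all of these without passing. With library size in place of TMM factors, the log2 fold change of Fzd1 in Wnt5a mutants was 0.040, that of Fzd6 in Notum mutants 0.10 and that of Fzd9 there 0.028, and without the filter on low counts Fzd1 in Wnt5a mutants was at 0.0026. Without both libraries numbered 7, an alternative chosen after seeing the data, Fzd8 in Wnt5a mutants was at -0.19. With the date as a replicate block, Fzd1 in Notum mutants was at -0.076 and Fzd8 at 1.29, and the ratio of the later date only gave -0.086 for Fzd1 and 1.29 for Fzd8. Fzd6 and Fzd10 were at 0 in the later control, so no ratio was formed for them there, and the fitted values that rest on that control (for Fzd6 8.33 with the block and 8.31 without the earlier control) are neither estimates nor bounds of a fold. The causes were not tested.

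Leaving out 1 library at a time gave, in Wnt5a mutants, -0.42 to 0.27 for Fzd1, -0.16 to 0.41 for Fzd8 and -0.31 to 0.015 for Fzd10. In Notum mutants it gave -0.070 to 0.81 for Fzd1, -1.04 to 8.31 (on a control at 0) for Fzd6, -0.27 to 0.52 for Fzd7, -0.92 to 1.30 for Fzd8 and -0.38 to 0.18 for Fzd9. Between epithelium and mesenchyme Fzd3 ran from -2.31 to 0.52, and between epithelium and E11.5 trachea Fzd9 ran from -1.11 to 0.83. Where this left 1 library in a group, that library was assumed to vary like the others.

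Frizzled genes called in Notum mutants numbered 2 with DESeq2, 2 with the date block and 0 to 2 with 1 library left out. Between epithelium and muscle they numbered 1 with DESeq2, 1 without the filter, 1 at 10 counts in every library and 3 with 18 libraries in 1 fit, the same counts as between epithelium and chondroblasts, and between epithelium and mesenchyme 1, 2, 1 and 3. Against E11.5 trachea, muscle had 0 without the filter and 0 at 10 counts, and 0 to 1 with 1 library left out, chondroblasts had 1 with DESeq2, 1 with 18 libraries and 0 to 1 with 1 library left out, and epithelium had 0 to 3. Over all genes, edgeR called 2 in Wnt5a mutants (0 to 40 over the other settings), 0 in Notum mutants (0 to 2770), 696 between epithelium and mesenchyme (286 to 3883), 514 between epithelium and muscle (168 to 3563), 387 between epithelium and chondroblasts (36 to 2956), 19 between chondroblasts and muscle (4 to 517), and, against E11.5 trachea, 1388 in muscle (688 to 2869), 659 in chondroblasts (169 to 1873) and 1880 in epithelium (779 to 4560).

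The numbers in the E11.5 column names were not taken to pair the libraries, since deviations of same-numbered libraries correlated at 0.53, 0.22, 0.20 and 0.08 and control 18 was closest to mutant 17. Seen from the mutants, each was closest to the control of its own number. With that number as a replicate block 0 members were called, and Fzd1 was at -0.14, Fzd8 at 0.39. Libraries are few, so members whose spread is wide, such as Fzd6 and Fzd10 in sorted cells, could not be compared closely.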
